A study of Mus musculus with 15 samples.

Results

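The complement components and receptors of macrophages were followed through 9 genes of a mouse bulk RNA-seq table of 17030 genes. They were taken by gene symbol: the 3 chains of C1q (C1qa, C1qb and C1qc), the central component C3, the classical-pathway component C4b, factor B (Cfb) and properdin (Cfp) of the alternative pathway, and the anaphylatoxin receptors C3ar1 and C5ar1. All 9 were in the table and 8 passed the filter on low values, which asked for at least 1 FPKM (fragments scaled to transcript length and library size) in at least 3 of the 15 libraries. C4b did not pass, and the C1q chains passed only through 1 group, the bone-marrow-derived macrophages.

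The study set macrophages grown from myeloid progenitors and carrying a chimeric antigen receptor (CAR) beside their controls, with 5 groups of 3 libraries. CAR macrophages have the genotype CAR expression and the treatment CAR treated, and control-CAR macrophages have Control-CAR expression and Control-CAR treated. Hoxb8 macrophages, BMDM (bone-marrow-derived macrophages) and progenitor cells are all labelled WT and untreated, and the titles give Hoxb8 to 1 of these groups without describing a construct. All 15 samples are labelled as primary cells from bone marrow, and the labels give neither the target of the CAR, nor strain, age or separate cultures, so p-values measure only the spread between the libraries, which may be technical.

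Complement is a cascade of plasma proteins. C1q binds antibody, dying cells and other surfaces and starts the classical pathway through its partner proteases and C4, while factor B and properdin build and stabilise the alternative-pathway enzyme that cleaves C3. The fragments C3a and C5a act on the receptors C3aR and C5aR1 of myeloid cells. The liver makes most of the circulating proteins, but macrophages are a main source of C1q and also make C3, factor B and properdin in tissues. In bulk RNA, fewer cells of a type and less RNA per cell cannot be told apart.

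Promoter sequences of 6 of the 9 genes were given by RefSeq for the GRCm38.p6 assembly, each covering 250 bases before to 50 bases after the start. Those of C1qb, C1qc and C3 are shown because C1qb and C1qc lie next to each other and were high only in the BMDM libraries, while C3 was high in every macrophage group. They are chr4:136886151-136886450, chr4:136892865-136893164 and chr17:57228087-57228386, all read on the minus strand, 5′ to 3′. Capitals mark matches, on either strand, to the motif letters given after the sequences.
C1qb: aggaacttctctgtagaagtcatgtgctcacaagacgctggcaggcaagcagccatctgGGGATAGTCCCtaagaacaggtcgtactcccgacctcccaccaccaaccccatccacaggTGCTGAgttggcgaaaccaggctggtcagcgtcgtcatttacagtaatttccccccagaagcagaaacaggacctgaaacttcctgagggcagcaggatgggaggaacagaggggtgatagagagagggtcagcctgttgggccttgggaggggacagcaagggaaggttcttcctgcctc
C1qc: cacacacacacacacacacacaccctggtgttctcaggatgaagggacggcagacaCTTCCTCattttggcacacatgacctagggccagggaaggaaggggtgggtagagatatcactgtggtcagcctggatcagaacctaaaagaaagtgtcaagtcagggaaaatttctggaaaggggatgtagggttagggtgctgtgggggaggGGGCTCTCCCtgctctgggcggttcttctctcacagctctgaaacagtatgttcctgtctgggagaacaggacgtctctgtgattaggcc
C3: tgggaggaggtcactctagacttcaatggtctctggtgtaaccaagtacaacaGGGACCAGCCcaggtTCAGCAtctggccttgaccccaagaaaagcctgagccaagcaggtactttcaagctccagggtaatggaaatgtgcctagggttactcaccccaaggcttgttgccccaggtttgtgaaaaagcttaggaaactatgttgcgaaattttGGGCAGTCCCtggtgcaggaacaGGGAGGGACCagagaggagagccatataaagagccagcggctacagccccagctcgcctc
The 6 sets of letters searched were TGCTGA (the short arm of the Maf recognition element), GAGGAAG (PU.1 core), GAAA, NN and GAAA in a row (interferon-stimulated response element), TTCNNNGAA (gamma-activated site), TTGCNNCAA (C/EBP) and GGGA followed by NNNN and CC (NF-kB core), each on both strands. TGCTGA was in 4 of the 6 promoters (C1qb, C3, C3ar1 and C5ar1), against 19.5% of all 32851 promoters of the same length. The NF-kB core was in 3 of the 6 (C1qb, C1qc and C3), against 20.7% of all, and the C3 promoter held it 3 times, with first bases at positions -197, -33 and -10 from the start. In C1qb this core matched on both strands in overlapping positions, from -191 and -190, and TGCTGA began at -131. The 50 bases after the C1qb start lay in no GENCODE transcript, unlike those of C1qc and C3, so its positions rest on the RefSeq start. GAGGAAG was in 1 of the 6, the C1qc promoter, against 13.6% of all, and the other three sets of letters were in none of the 6. These matches describe letters only, and whether a factor binds there was not measured.

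Each library held between 16962839 and 19221681 estimated counts, so depth differed little between groups. Levels are given as FPKM. Changes are log2 fold changes of the counts from edgeR's quasi-likelihood test with TMM scaling, with Benjamini-Hochberg adjustment over all 11793 tested genes, and called at an adjusted p under 0.05. The TMM factors were 1.05 in CAR macrophages, 0.825 to 0.877 in control-CAR macrophages, 0.824 to 0.829 in Hoxb8 macrophages, 0.897 to 0.961 in BMDM and 1.46 to 1.47 in progenitor cells, so a change can differ from the ratio of FPKM. The labelled cell types were checked with 10 macrophage markers. Their summed FPKM was 5583 to 5739 in CAR macrophages, 12021 to 12850.3 in control-CAR macrophages, 12467 to 13119.5 in Hoxb8 macrophages, 12595 to 13753 in BMDM and 208 to 229 in progenitor cells, where Mertk was at 0. Of markers of other cells, 8 mast cell and basophil genes summed to 2970.5 to 3187 FPKM in CAR macrophages, against 49.1 to 69.2 in control-CAR macrophages. Most of the CAR sum was Cpa3, at 2149, 2179.9 and 2334 FPKM in the CAR libraries. In progenitor cells the 8 genes summed to 1347 to 1457 FPKM, with Cpa3 at a mean of 1284 and 4 of the 8 at 0 counts. For 9 neutrophil genes the sum was 1289 to 1548 FPKM in Hoxb8 macrophages, against 6146 to 12485 in BMDM, and for 3 B cell genes it was 0.15 to 0.17 against 16.5 to 33.1. The hepatocyte markers in the table, 2 of 5, stayed at 0 to 0.16 FPKM in every library. The part of these cell markers in the results was not tested.

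**Figure D1:**
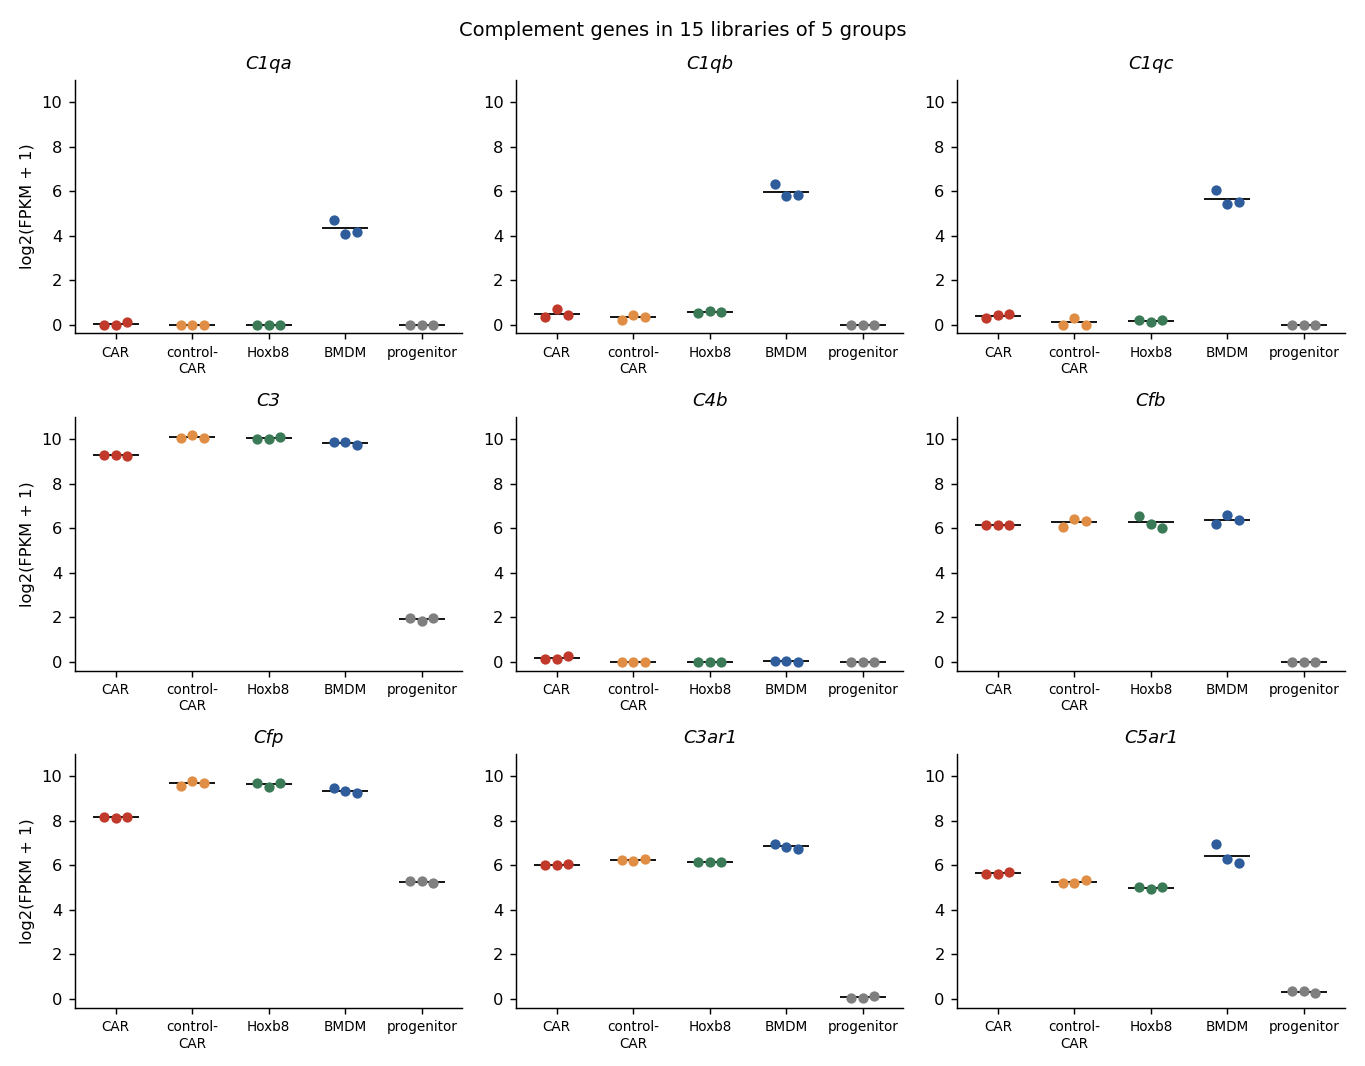
Expression of the 9 complement genes as log2(FPKM + 1), 1 panel per gene; points are single libraries, 3 per group, and lines are group means. The C1q chains stand well above 1 FPKM only in BMDM, while C3 and Cfp are high in all 4 macrophage groups and lowest among these in CAR macrophages.

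C1q is made of A, B and C chains, whose genes lie together on chromosome 4 (GRCm38.p6), C1qb at 136880126 to 136886200, C1qc at 136889801 to 136892936 and C1qa at 136895916 to 136898844, a stretch of 18719 bases. C1qa, the A chain, was at 0, 0 and 0.07 FPKM in CAR macrophages, the last from 1 count, and at 0 in all control-CAR and Hoxb8 libraries. It was at 25.2, 16.0 and 16.99 FPKM in the 3 BMDM libraries and at 0 in progenitor cells. C1qb, the B chain, had 0.28, 0.61 and 0.34 FPKM in CAR macrophages, 0.15, 0.35 and 0.28 in control-CAR macrophages, 0.43, 0.54 and 0.50 in Hoxb8 macrophages, 79.8, 53.3 and 56.1 in BMDM, and 0 in progenitor cells. C1qc, the C chain, had 0.23, 0.36 and 0.37 FPKM in CAR macrophages, 0, 0.22 and 0 in control-CAR macrophages, 0.15, 0.07 and 0.15 in Hoxb8 macrophages, 65.7, 42.1 and 44.3 in BMDM, and 0 in progenitor cells. The BMDM libraries thus held all 3 chains and the other groups held traces or none. Because the chains passed the filter only through BMDM, this is a description of levels.

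The 3 chains kept close to 1 ratio within BMDM. C1qa was 0.316, 0.301 and 0.303 of C1qb by FPKM in replicates 1, 2 and 3, and C1qc was 0.823, 0.790 and 0.790 of C1qb. Their summed level was 171 FPKM in replicate 1, against 112 and 117 in replicates 2 and 3. Replicate 1 was thus 1.53, 1.46 and 1.52 times the mean of replicates 2 and 3 for C1qa, C1qb and C1qc, and 1.68 times for C5ar1. Among the 10601 genes at 1 FPKM or more the median of this ratio was 0.964, and 109 genes (1.03%) reached 1.4. The macrophage markers ran from 0.939 for Cd68 to 1.57 for Mrc1, a mannose receptor. Between them were Lyz2 at 1.06, Cd14 at 1.07, Csf1r at 1.17 and Adgre1 at 1.29. C3, Cfp and C3ar1 were at 1.05, 1.12 and 1.11, and Cfb was at 0.815, the only one of the 8 tested members lower in replicate 1. The 9 neutrophil markers summed to 6146 FPKM in replicate 1, against 12485 and 11156 in replicates 2 and 3, and their part in the difference was not tested.

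**Figure D2:**
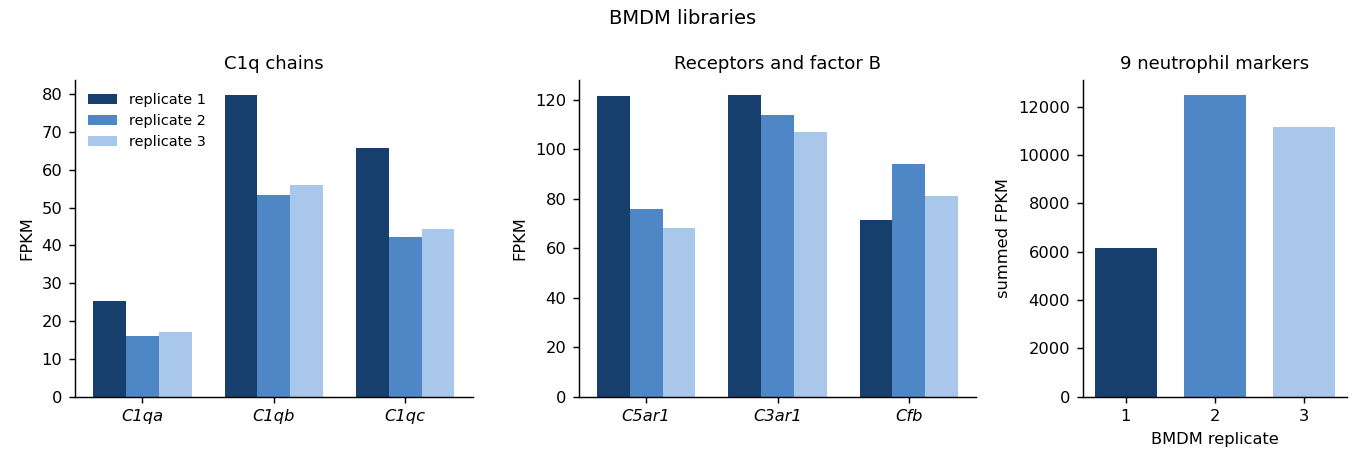
FPKM of the C1q chains (left), of C5ar1, C3ar1 and Cfb (middle) and summed FPKM of 9 neutrophil markers (right) in the 3 BMDM libraries, 1 bar per library. Replicate 1 is highest for the C1q chains and C5ar1 and lowest for Cfb and for the neutrophil markers.

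The genes on either side of the C1q cluster did not share its pattern. Ephb2 averaged 0.913 FPKM in CAR macrophages and 0.0233 in BMDM, Epha8 at most 0.127 in any group, and Zbtb40 between 2.16 in BMDM and 4.94 in progenitor cells. Outside the members, the tested genes whose log2(FPKM + 1) followed C1qa most closely over the 15 libraries included Serpina3b and Blk (Pearson r 0.9999 and 0.9997). Each was at most 0.01 FPKM on average outside BMDM and at 1.45 and 1.47 FPKM within it. These are descriptions over libraries that fall into 5 groups.

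C3, the component at which all pathways meet, lies at chromosome 17, 57203967 to 57228136. It was the most abundant of the 9 genes by FPKM in every macrophage group. Its level was 624, 625 and 608 FPKM in CAR macrophages, 1055, 1147 and 1069 in control-CAR macrophages, 1030.1, 1019 and 1085 in Hoxb8 macrophages, 934, 942 and 842 in BMDM, and 2.87, 2.50 and 2.90 in progenitor cells. The CAR libraries were below all other macrophage libraries, and control-CAR and Hoxb8 macrophages overlapped. By mean FPKM among 17030 genes, C3 ranked 176 in CAR macrophages, 105 in control-CAR macrophages, 110 in Hoxb8 macrophages and 129 in BMDM. It took 0.299% ± 0.005 of all counts in CAR macrophages and 0.523% ± 0.0269 in control-CAR macrophages (SD, n = 3 each).

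C4b, the component cut by the C1 proteases, was near the detection limit. It had 9, 9.25 and 17.1 estimated counts in the CAR libraries, 0.10, 0.10 and 0.18 FPKM, and 0 counts in all control-CAR, Hoxb8 and progenitor libraries. BMDM had 2, 2 and 0 counts. With 3 counts per library as the floor, C4b was at least 3.07-fold higher in CAR than in control-CAR macrophages. It was 8.16-fold higher in CAR macrophages than in BMDM (95% interval 2.89 to 31.3, exact, counting error only). C4b was below the filter and was not tested, and reads can be split between it and its near-identical copy C4a, which averaged 0.287 FPKM in the CAR group, against 0.11 in the control-CAR group.

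Factor B, the protease of the alternative pathway, was at similar FPKM in all macrophage groups and had no counts in progenitor cells. Cfb had 70.0, 70.5 and 70.0 FPKM in CAR macrophages, 64.6, 83.9 and 79.3 in control-CAR macrophages, 93.5, 71.5 and 64.3 in Hoxb8 macrophages and 71.3, 94.0 and 80.9 in BMDM. The macrophage groups overlapped, except that the CAR libraries lay just below the BMDM libraries. All 3 progenitor libraries had 0 counts. Cfb lies at chromosome 17, 34856374 to 34862514, beside C2 at 34862602 to 34882100, the classical-pathway counterpart of factor B, which averaged at most 0.0833 FPKM in any group. GENCODE places a read-through gene, Gm20547, over the exons of Cfb on the same strand, so counts assigned to Cfb may be shared with it.

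Properdin, the stabiliser of the alternative-pathway convertase, was the second most abundant member and the most abundant of the 9 in progenitor cells. Cfp had 286, 277 and 289.7 FPKM in CAR macrophages, 752, 875 and 830.4 in control-CAR macrophages, 828, 742 and 841 in Hoxb8 macrophages, 702, 644 and 608 in BMDM and 37.7, 38.0 and 35.9 in progenitor cells. The CAR libraries were below every other macrophage library. It ranked 349 in CAR macrophages and 141 in control-CAR macrophages by mean FPKM.

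C3ar1, the receptor for C3a, had 63.6, 64.2 and 65.6 FPKM in CAR macrophages, 75.0, 71.4 and 77.1 in control-CAR macrophages, 69.1, 70.6 and 70.4 in Hoxb8 macrophages, 122, 114 and 107 in BMDM, and 0.03, 0.03 and 0.10 in progenitor cells. BMDM were highest and the CAR libraries were lowest among macrophages. C5ar1, the receptor for C5a, had 47.9, 48.1 and 51.1 FPKM in CAR macrophages, 35.8, 36.4 and 39.0 in control-CAR macrophages, 31.1, 29.5 and 31.8 in Hoxb8 macrophages, 121, 75.9 and 68.3 in BMDM and 0.26, 0.28 and 0.21 in progenitor cells. BMDM were again highest, but the CAR libraries stood above control-CAR and Hoxb8 macrophages. The ratio of C3ar1 to C5ar1 by FPKM was 1.32 ± 0.0281 in CAR macrophages, 2.01 ± 0.0738 in control-CAR macrophages, 2.28 ± 0.103 in Hoxb8 macrophages and 1.36 ± 0.306 in BMDM (SD, n = 3 each).

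Genes outside the members whose levels followed those of a member were described in the same way for 3 more members. C3 was followed most closely by Il1b, Sod2 and Il1a (r 0.9998, 0.9991 and 0.9989), C3ar1 by Clec4n, Ptprj and Nfkbiz (r 0.9991, 0.9990 and 0.9986), and Cfb by Fam20c, Tnfaip3 and Ctsb (r 0.9988, 0.9988 and 0.9983), each over 15 libraries. Il1b, which encodes the cytokine interleukin-1 beta, averaged 2924 FPKM in CAR macrophages, 6335 in control-CAR macrophages, 6421 in Hoxb8 macrophages, 4990.2 in BMDM and 0.0833 in progenitor cells, and like C3 it was lowest among macrophages in the CAR group. The libraries fall into 5 groups, and no test goes with these coefficients.

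CAR macrophages were set beside control-CAR macrophages, their labelled control. These groups differ in both the genotype and the treatment label, which cannot be told apart. C3 and properdin were lower in CAR macrophages. C3 averaged 619 ± 9.74 FPKM in CAR macrophages and 1090.4 ± 49.5 in control-CAR macrophages (SD over 3 libraries each). Its log2 change was -1.12 ± 0.07 (SE; edgeR quasi-likelihood test, adjusted p = 8.56e-11). Cfp averaged 284 ± 6.42 FPKM in CAR macrophages and 819 ± 62.2 in control-CAR macrophages, a log2 change of -1.83 ± 0.08 (edgeR quasi-likelihood test, adjusted p = 3.42e-13). Both stayed called and lower under every scaling tried.

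For the receptor C3ar1 the log2 change was -0.51 ± 0.07 (edgeR quasi-likelihood test, adjusted p = 2.68e-06), and for Cfb it was -0.43 ± 0.13 (adjusted p = 0.00663), but on TPM (transcript shares scaled to a fixed sum) both turned to the other side, at 0.03 and 0.13, and were not called by limma. Cfb was also not called with library totals (-0.11) or with limma on FPKM (-0.10 at both pseudocounts, adjusted p = 0.459 and 0.467), and C3ar1 was not called with limma on log2(FPKM + 0.1) (-0.21, adjusted p = 0.134). C5ar1 had a log2 change of 0.10 ± 0.15 (edgeR quasi-likelihood test, adjusted p = 0.552), although its libraries did not overlap by FPKM, as was the case for 82.1% of tested genes, and it was called higher with library totals (0.41, adjusted p = 0.0144) and with limma on TPM (0.63, adjusted p = 0.00125). C1qb had 18 counts in CAR and 11 in control-CAR libraries, a ratio of 1.28 (95% interval 0.572 to 3.0), and C1qc had 13 and 3, a ratio of 3.39 (0.931 to 18.5). C1qa, with 1 and 0 counts, gave no fold.

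Of the 5 members that reached 1 FPKM in more than 1 group, 4 were called in CAR against control-CAR macrophages, 0 higher and 4 lower, where 78.7% of the 11793 tested genes were called, 41.9% higher and 36.8% lower. The C1q chains were not called by edgeR's quasi-likelihood test. The split of the 5 depended on the scaling: it was 1 higher and 3 lower with library totals and with limma on log2(FPKM + 1), 1 and 2 with limma on log2(FPKM + 0.1) and on TPM, and 0 and 4 after quantile normalisation. Over all genes it was 4946 higher and 4334 lower with TMM, 6722 and 2770 with library totals, 8018 and 1933 on TPM and 4212 and 5306 with quantile normalisation. Over all tested genes the median log2 change, 0.064 with TMM, moved by 0.31 with library totals, by 0.45 on TPM and by -0.16 after quantile normalisation. The 5 members had a median log2 change of -0.51 with TMM, -0.2 with library totals, 0.03 on TPM and -0.39 after quantile normalisation. Beside the falls of C3 and Cfp, 8 of 10 macrophage markers were called lower and 1 higher in CAR macrophages, and 7 of 7 tested mast cell and basophil markers were called higher. The part of cell composition in these values was not tested.

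**Figure D3:**
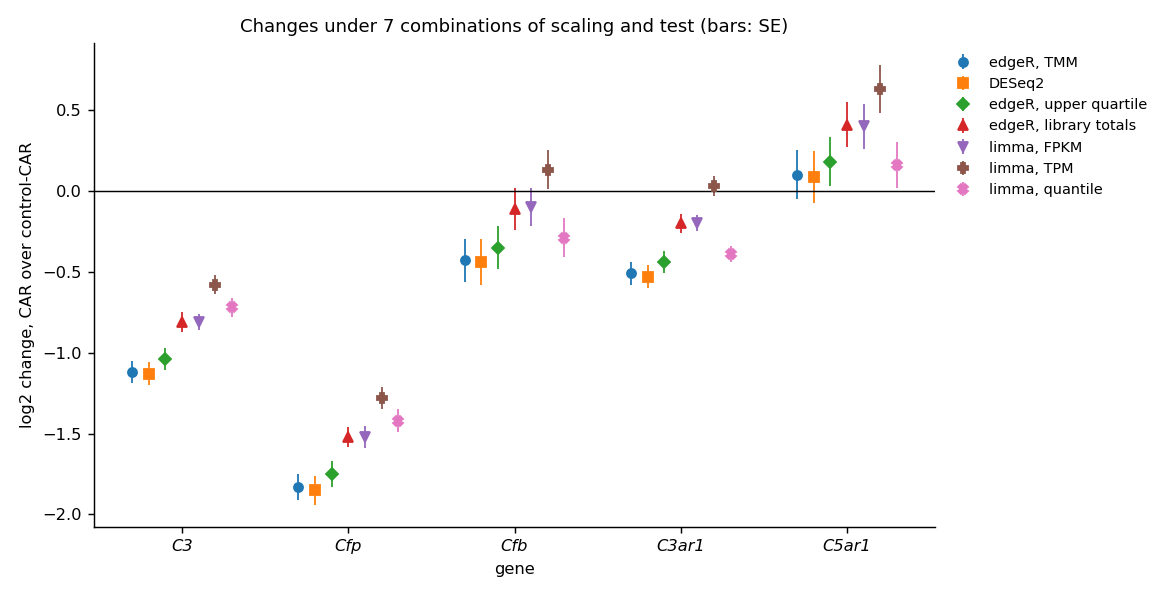
Log2 change in CAR over control-CAR macrophages for the 5 members with FPKM above 30 in both groups, under 7 combinations of scaling and test; bars are standard errors of the fit. C3 and Cfp are below 0 in all 7, Cfb and C3ar1 are below 0 except on TPM, and C5ar1 is above 0 in all 7 but called in only some of them.

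Control-CAR macrophages were set against the untreated Hoxb8 macrophages. No member was called: 0 of 8 by edgeR's quasi-likelihood test, where 2.62% of the tested genes were called, and 0 at an unadjusted p under 0.05. DESeq2 and limma on FPKM and on TPM also called 0 of 8. C3 averaged 1090.4 ± 49.5 FPKM in control-CAR macrophages and 1045 ± 34.9 in Hoxb8 macrophages, a log2 change of 0.03 ± 0.07. For C3ar1 and C5ar1 the log2 changes were 0.05 ± 0.07 and 0.22 ± 0.16. By FPKM the libraries of C3ar1, C5ar1 and C1qb did not overlap, as was the case for 21.9% of tested genes. C1qb had 11 counts in control-CAR and 21 in Hoxb8 libraries, a ratio of 0.515 (95% interval 0.224 to 1.12).

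Hoxb8 macrophages were also set against BMDM, and both groups are labelled WT, untreated and primary cells. Both receptors were called lower in Hoxb8 macrophages, and the C1q chains were at traces there. With 0 counts in Hoxb8 macrophages and 865 in BMDM, C1qa was at least 80.0-fold lower, taking 3 counts per library as the floor. C1qb, with 21 counts in Hoxb8 macrophages and 2887 in BMDM, was 114-fold lower (95% interval 74.7 to 185, exact, counting error only), and C1qc, with 5 and 2186, was 364-fold lower (156 to 1121). Because the chains passed the filter only through BMDM, these are descriptions, and no test of the chains against BMDM is given.

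C5ar1 averaged 30.8 ± 1.2 FPKM in Hoxb8 macrophages and 88.6 ± 28.7 in BMDM, a log2 change of -1.37 ± 0.15 (edgeR quasi-likelihood test, adjusted p = 2.56e-07). C3ar1 averaged 70.1 ± 0.81 FPKM in Hoxb8 macrophages and 114 ± 7.61 in BMDM, a log2 change of -0.54 ± 0.07 (adjusted p = 1.88e-06 by the same test). C3 and Cfp went the other way: the log2 changes were 0.37 ± 0.07 and 0.46 ± 0.08 (edgeR quasi-likelihood test, adjusted p = 0.000198 and 4.25e-05), and on TPM they were 0.03 and 0.13 and not called. Cfb did not pass the test, at 0.07 ± 0.13 (adjusted p = 0.669), and limma on TPM gave -0.28 (adjusted p = 0.0478). Of the 5 members that reached 1 FPKM in more than 1 group, 4 were called, 2 higher and 2 lower, where 70.3% of tested genes were called, 32.0% higher and 38.3% lower. On TPM these members split 0 higher and 3 lower. Over all genes the split was 3776 higher and 4516 lower with TMM, 2628 and 5865 with library totals, 1815 and 7172 on TPM, where the median moved by -0.27, and 4869 and 3609 after quantile normalisation, where it moved by 0.12. Of 9 neutrophil markers, 8 were called lower in Hoxb8 macrophages and 1 higher, and their part in the result was not tested.

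CAR macrophages were also set against BMDM. The 5 members other than the C1q chains and C4b were lower in CAR macrophages, 5 of 5 called, where 76.9% of tested genes were called and 37.8% were lower. The count was 4 of 5 with library totals and with limma on FPKM and on TPM, where Cfb was not called. The C1q chains, which entered the fit only through BMDM, are given by their counts. C1qb was 174-fold lower (95% interval 109.7 to 294, counting error only) and C1qc 182-fold lower (106 to 343). C1qa, with 1 count in CAR macrophages and 865 in BMDM, was 937-fold lower (168 to 37057). The log2 changes were -1.38 ± 0.08 for Cfp, -1.05 ± 0.15 for C5ar1, -1.01 ± 0.07 for C3ar1 and -0.72 ± 0.07 for C3, with edgeR quasi-likelihood adjusted p-values of 2.23e-11, 4.42e-06, 3.49e-10 and 4.7e-08. For Cfb it was -0.41 ± 0.13 (adjusted p = 0.00885 by the same test), but it was not called with library totals (-0.23, adjusted p = 0.109), with limma on log2(FPKM + 1) (-0.21, adjusted p = 0.131) or log2(FPKM + 0.1) (-0.22, adjusted p = 0.14), with limma on TPM (-0.14, adjusted p = 0.313), or without BMDM replicate 2 (-0.30, adjusted p = 0.059). This comparison shares its CAR libraries with that against control-CAR macrophages and its BMDM libraries with that of Hoxb8 macrophages.

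Against progenitor cells C3, Cfp, Cfb and both receptors were higher in both macrophage groups tested. In Hoxb8 macrophages these 5 of 5 were called higher, where 84.3% of tested genes were called and 44.7% were higher. In BMDM 5 of 5 were called higher, where 87.3% were called and 46.6% were higher. C1qa and C4b were at 0 in both Hoxb8 macrophages and progenitor cells. C3 had log2 changes of 9.40 ± 0.11 in Hoxb8 macrophages and 9.03 ± 0.11 in BMDM over progenitor cells (edgeR quasi-likelihood test, adjusted p = 1.02e-21 and 1.13e-21). Those of Cfp were 5.27 ± 0.10 and 4.80 ± 0.09, in the same order (adjusted p = 2.31e-19 and 6.52e-19). C3ar1, with 14923 counts in Hoxb8 macrophages against 11 in progenitor cells, was 2397-fold higher (95% interval 1339 to 4804), and in BMDM it was 3481-fold higher (1945 to 6975). C5ar1 was 219-fold higher in Hoxb8 macrophages (152 to 327) and 562-fold higher in BMDM (391 to 839). Cfb, with 0 counts in progenitor cells, was at least 1947-fold higher in Hoxb8 macrophages and at least 1862-fold higher in BMDM. C1qa, C1qb and C1qc were at least 141-fold, 472-fold and 357-fold higher in BMDM. In Hoxb8 macrophages C1qb was at least 4.12-fold higher, with 21 counts in all, and C1qc, with 5 counts, gave no fold. The 2 comparisons share the progenitor libraries, and scaling by library totals moved the median of all genes by -0.74 and -0.64, less than any of these changes.

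The rest of the complement system was followed through 46 listed genes, of which 35 were in the table and 15 passed the filter, 2 of them (C1s2 through CAR macrophages and Cd59a through BMDM) through a single group. Calls of C1s2 as higher in CAR macrophages and of Cd59a as higher in BMDM thus have a direction set by the filter. The counts and medians below include them, C1s2 where CAR macrophages are compared and Cd59a where BMDM are. In CAR against control-CAR macrophages 7 of the 15 were called higher and 6 lower, where 78.7% of tested genes were called, 41.9% higher and 36.8% lower. The median log2 change was 0.42 over the 14 with a fold, beside 0.064 for all genes. Over all 15 it was 0.44 with TMM, 0.74 with library totals, 0.59 on TPM and -0.05 after quantile normalisation. The split into higher and lower was 8 and 4 with library totals, 8 and 3 on TPM and 7 and 7 after quantile normalisation. C1s1 and C1ra, the proteases that C1q activates, averaged 37.5 ± 1.91 and 17.1 ± 0.758 FPKM in CAR macrophages, against 0.65 ± 0.114 and 1.16 ± 0.247 in control-CAR macrophages. Their log2 changes were 5.54 ± 0.13 and 3.55 ± 0.13 (edgeR quasi-likelihood test, adjusted p = 1.34e-15 and 1.67e-14), and both have near-identical copies among which reads can be split. Cd55, which speeds the decay of C3 convertases on the cell surface, averaged 96.3 ± 1.09 FPKM in the CAR group, against 1.90 ± 0.349 in the control-CAR group, a log2 change of 5.29 ± 0.10 (adjusted p = 4.62e-18 by the same test). Itgam, the alpha chain of complement receptor 3, averaged 199.6 ± 2.27 FPKM in the CAR group, against 348 ± 7.44 in the control-CAR group, a log2 change of -1.11 ± 0.08 (adjusted p = 2.23e-10 by the same test). The CAR libraries held RNA for C1r and C1s with C1q at traces. Some markers of other cells were higher in the same libraries. The 8 fibroblast genes summed to 51.9 to 53.3 FPKM in CAR macrophages, against 16.4 to 19.1 in control-CAR macrophages. Col1a2 was at 23.9 against 0.01 and Sparc at 16.4 against 0, but Pdgfrb fell to 5.81 from 16.9. Of the 6 tested, 4 were called higher and 1 lower. The 6 epithelial genes summed to 9.47 to 9.65 FPKM in CAR macrophages, against 0.45 to 0.85 in control-CAR macrophages, with 3 of 4 tested called higher. Most of this sum was Krt20 (5.46) and Krt18 (2.25), while Epcam was at 0.02 and Krt19 was lower, at 0.0933 against 0.26. For 8 myeloid progenitor genes the sum was 161 to 175 against 13.4 to 15.5, with 4 of 8 called higher. BMDM had sums of 20.6 to 25.2 for the epithelial and 155 to 274 for the myeloid progenitor genes. Their part in these values was not tested.

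In Hoxb8 macrophages against BMDM 12 of the 15 were called lower and 0 higher by edgeR's quasi-likelihood test. Of all tested genes 70.3% were called, 38.3% lower and 32.0% higher. The median log2 change of the 15 was -1.10, beside -0.048 for all genes, and quantile normalisation called 13 of the 15 lower and 2 higher. Fcnb, a ficolin that recognises sugars in the lectin pathway, averaged 1.13 ± 0.272 FPKM in Hoxb8 macrophages and 10.6 ± 2.07 in BMDM, a log2 change of -3.09 ± 0.22 (edgeR quasi-likelihood test, adjusted p = 2.83e-09). The log2 changes were -2.47 ± 0.12 for Cd55, -2.31 ± 0.14 for C1ra and -1.57 ± 0.16 for clusterin (Clu), a fluid-phase inhibitor of the terminal complex (adjusted p = 1.2e-12, 3.06e-11 and 1.98e-07 by the same test). In CAR macrophages against BMDM 5 were called higher and 10 lower, where 76.9% of tested genes were called and 37.8% were lower. Among the 15, C1s1 (3.36 ± 0.10) and Cd55 (2.98 ± 0.08) were higher and Fcnb (-4.80 ± 0.26) and Clu (-2.57 ± 0.17) lower. Their adjusted p-values by edgeR's quasi-likelihood test were 4.82e-14, 7.74e-16, 6.26e-11 and 6.88e-10.

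In control-CAR against Hoxb8 macrophages, where 2.62% of tested genes were called, 1 of the 15 was called. This was Lrp1, an endocytic receptor, at -0.35 ± 0.09 (edgeR quasi-likelihood test, adjusted p = 0.0486). It lost the call when any 1 of the 6 libraries was left out, with adjusted p-values of 0.0654 to 0.142, and also with limma on log2(FPKM + 0.1) (adjusted p = 0.0588), on TPM (0.0735), after quantile normalisation (0.0564) and with edgeR's own filter (0.0549). On TPM and after quantile normalisation 0 of the 15 were called, and with library totals and limma on log2(FPKM + 1) there were 2, Lrp1 lower and Cd93 higher. Against progenitor cells 11 of the 15 were higher and 1 lower in Hoxb8 macrophages, where 84.3% of tested genes were called and 44.7% were higher. In BMDM 12 were higher and 1 lower, where 87.3% were called and 46.6% were higher. Lrp1 averaged 63.2 ± 1.12 FPKM in Hoxb8 macrophages, 113 ± 17.5 in BMDM and 0.07 ± 0.01 in progenitor cells. Itgam and Itgb2, the chains of complement receptor 3, averaged 305 ± 5.37 and 662 ± 60.0 FPKM in Hoxb8 macrophages, against 14.1 ± 0.308 and 105 ± 0.99 in progenitor cells. Of the complement genes not made in quantity here, C2 was below 0.1 FPKM in every group and factor D (Cfd), which cuts factor B, averaged 0.03 FPKM in BMDM and 0 elsewhere.

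**Figure D4:**
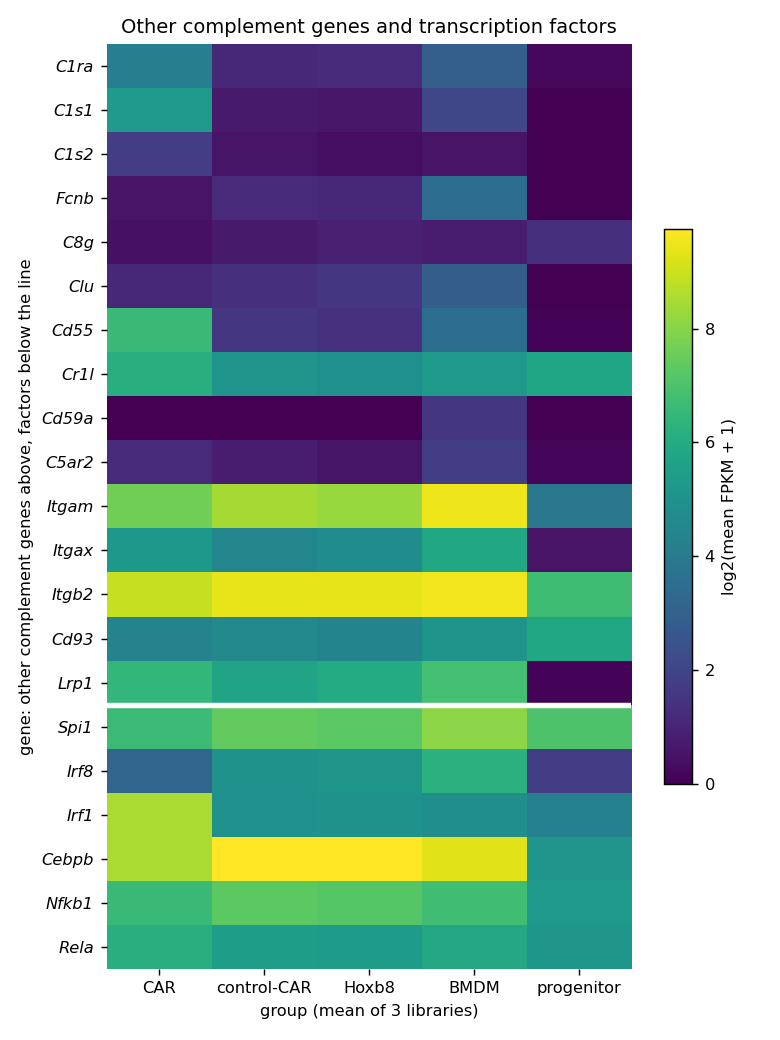
Heat map of log2(mean FPKM + 1) in the 5 groups (columns) for the 15 other complement genes that passed the filter and 6 transcription factors (rows, below the white line); each cell is the mean of 3 libraries. C1s1, C1ra and Cd55 are brightest in CAR macrophages, and Fcnb in BMDM.

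Of the transcription factors described at macrophage complement genes, 8 were listed and tested. In CAR against control-CAR macrophages 3 were called higher and 5 lower, where 78.7% of tested genes were called, 41.9% higher and 36.8% lower. Irf1, an interferon-response factor, averaged 368 ± 6.78 FPKM in CAR macrophages, against 28.5 ± 1.64 in control-CAR macrophages (log2 change 3.39 ± 0.07; edgeR quasi-likelihood test, adjusted p = 1.65e-17). Rela, a subunit of NF-kB, had a log2 change of 0.37 ± 0.05 (adjusted p = 5.49e-06 by the same test). Among the lower 5 were Irf8 (-2.20 ± 0.09), Cebpb (-1.54 ± 0.10), Spi1, which encodes PU.1 (-1.07 ± 0.07), and Nfkb1, the other NF-kB subunit (-1.03 ± 0.06). Their adjusted p-values by edgeR's quasi-likelihood test were 4.39e-14, 9.34e-11, 5.68e-11 and 1.11e-11.

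In Hoxb8 macrophages against BMDM 3 factors were higher and 5 lower, where 70.3% of tested genes were called, 32.0% higher and 38.3% lower. Irf8 (-0.91 ± 0.07), Spi1 (-0.63 ± 0.07) and Rela (-0.37 ± 0.05) were among the lower, and Nfkb1 (0.61 ± 0.06) and Cebpb (0.58 ± 0.10) were higher, all called by edgeR's quasi-likelihood test. Irf1 was called higher at 0.29 ± 0.07 (adjusted p = 0.00168 by the same test), but on TPM it was -0.05 and not called. No factor was called in control-CAR against Hoxb8 macrophages, where 2.62% of tested genes were called. The count was 0 of 8 by edgeR's quasi-likelihood test, 0 by DESeq2 and by limma on FPKM and TPM, and 1 at an unadjusted p under 0.05, Irf8.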

How the data were processed

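RNA-seq libraries of 15 samples were made with the Optimal Dual-mode mRNA kit (oligo(dT) enrichment, random hexamers), per the labels' protocols. The submitters' processing notes name HISAT2, Bowtie2, RSEM 1.3.1, DESeq2 1.4.5 and GRCm38.p6. Annotation and strand setting: not given in the sources used here. The table the authors deposited holds RSEM estimated counts, FPKM and TPM per gene and library, per the file headers; 15 columns of group averages were not used. The symbols of 25 genes had been converted to calendar dates and were recovered from their IDs; 16978 of 17030 IDs matched RefSeq.

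Estimated counts were rounded to whole numbers. The 11793 genes with at least 1 FPKM in at least 3 libraries were fitted in 1 model of the 5 groups (10 residual degrees of freedom) with edgeR 4.0.16 (TMM, quasi-likelihood test, Benjamini-Hochberg adjustment) in R 4.3.3, checked on simulated counts. In the simulated counts few genes differed between the compared groups, unlike in these data, so the check does not cover the choice of scaling. Genes at 0 or few counts are given as count ratios with exact 95% intervals or bounds (floor of 3 counts per library), which cover counting error only.

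Alternatives were DESeq2 1.42.0, other scalings and filters, limma 3.58.1 on log2(FPKM + 1), log2(FPKM + 0.1) and log2(TPM + 1), a replicate block and leaving out each library. All 9 members are named. Of the other complement genes, up to 4 per comparison are named: the called ones with the largest change, among genes reaching 5 FPKM in the group with more. C2, Cfd and the genes beside the members were named after their values were seen. Members and lists were chosen with earlier results of these data known. Some genes that these rules would name are not reported here.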

Additional observations from a re-analysis of the deposited data

How the results depend on the processing

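The counts of called members stayed within 1.5 times under every alternative and left-out library. In the comparisons with BMDM they include the C1q chains, whose calls there were set by the filter. Of the 5 members that reached 1 FPKM in more than 1 group, the split in CAR against control-CAR macrophages was 0 higher and 4 lower with TMM, and 1 and 2 on TPM. In Hoxb8 macrophages against BMDM it was 2 and 2 with TMM, and 0 and 3 on TPM. Of 80 single changes, 65 kept direction and call throughout. Among these are changes of the C1q chains against BMDM, whose direction was set by the filter, so for them this shows nothing about stability.

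Changes that turned sign, in CAR against control-CAR macrophages: C1qb -0.43 and C1qc -0.10 after quantile normalisation, Cfb 0.13 and C3ar1 0.031 on TPM; C1qb ran from -0.049 (without CAR replicate 2) to 0.63 when single libraries were left out. In control-CAR against Hoxb8 macrophages, where no member was called: Cfb 0.00015 and 0.00025 with limma on FPKM (pseudocounts 1 and 0.1) and 0.014 on TPM, and -0.16 to 0.12 without single libraries, above 0 without replicate 1 of either group. Cfp there was 0.016 with library totals, 0.027 with limma on FPKM at both pseudocounts, 0.04 on TPM and 0.08 after quantile normalisation, and -0.09 to 0.065 without single libraries. C3 there ran from -0.034 (without control-CAR replicate 2) to 0.073. In Hoxb8 macrophages against BMDM: Cfb -0.1 with library totals, -0.11 with limma on FPKM at both pseudocounts, -0.28 on TPM and -0.027 after quantile normalisation, and -0.11 to 0.18 without single libraries; Irf1 -0.05 on TPM. The cause was not tested.

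C1qc in CAR against control-CAR macrophages was called higher with limma on log2(FPKM + 1) (0.30, adjusted p = 0.043), on log2(FPKM + 0.1) (1.49, adjusted p = 0.00164) and on TPM (0.45, adjusted p = 0.0109). It was also called by edgeR without control-CAR replicate 2, which holds all 3 control-CAR counts (adjusted p = 0.0454). C1qb was called lower in the same comparison with limma after quantile normalisation (-0.43, adjusted p = 0.00435). Without the filter 21 other complement genes were called in that comparison rather than 13, 24 rather than 13 in BMDM against progenitor cells and 25 rather than 15 in CAR macrophages against BMDM, from 35 genes tested rather than 15. Of the 8 factors, 5 rather than 8 were called higher in Hoxb8 macrophages against progenitor cells on TPM.

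Replicate numbers did not pair the libraries: of 30 same-numbered pairs of groups 2 had deviations correlated above 0.1 (range -0.286 to 0.173). With a replicate block the members called were 4, 0, 7, 7, 8 and 8, for CAR against control-CAR, control-CAR against Hoxb8, Hoxb8 against progenitor cells, Hoxb8 against BMDM, BMDM against progenitor cells and CAR against BMDM, the same counts as without it; in the comparisons with BMDM, and of Hoxb8 with progenitor cells, they include C1q chains that passed the filter only through BMDM. Depth limits the C1q chains outside BMDM and C4b, which rest on 0 to 21 and on 0 to 35.4 counts per group.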
